A study of Mus musculus with 9 samples.

Results

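The guanylate-binding proteins (GBPs) and the immunity-related GTPases (IRGs) were followed in mouse CD4+ T cells activated with or without acacetin, a plant flavone. The genes were chosen by symbol from the count table: Gbp2, Gbp3, Gbp4, Gbp5, Gbp6 and Gbp7 for the GBPs, and Igtp, Irgm1, Irgm2 and Iigp1 for the IRGs. These are 10 of 25757 entries in the table, each symbol stood on 1 entry, and all 10 passed the filter on low counts that left 12185 genes for testing. The choice of the genes did not use their measured values, but it was made with other results of these data known.

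The cells were naive CD4+ T cells of normal BALB/c mice, taken from spleen and lymph node. All 3 groups are labelled wild type (WT) and were stimulated on plates coated with anti-CD3 and anti-CD28 antibodies at 5 μg/ml, which replace the antigen and costimulatory signals. The groups differed in acacetin, at 0, 5 or 10 μM from the start of the culture, and RNA was taken on day 3 from 3 biological replicates of each. Acacetin was dissolved in DMSO, and the sources do not say whether the 0 μM cultures received DMSO. The sample labels name RPMI 1640 as the medium and the methods name IMDM, and mice or cultures behind a replicate are not described further, so a p here weighs a difference against the spread of these libraries alone, which may be technical.

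GBPs and IRGs are GTPases that interferons, above all interferon-γ, induce in many cell types. They gather on the membranes of vacuoles that hold intracellular parasites or bacteria, where they help to break the vacuole open and to expose its contents to cytosolic sensors. Within the IRGs of the mouse, Igtp, Irgm1 and Irgm2 sit on membranes of the cell's own organelles and hold effector IRGs such as Iigp1 inactive there. Interferons act on such genes through short promoter elements, gamma-activated sites (GAS) and interferon-stimulated response elements (ISRE), the latter of which interferon regulatory factors bind.

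Promoters of the pair of neighbouring genes that moved in opposite directions (Gbp5 and Gbp7), and of the neighbouring pair with a small fall and no detected change (Igtp and Irgm2), are printed to show where the letters of interferon-responsive elements lie. Each is the 250 bases before the annotated start, matched by symbol, from RefSeq on GRCm38.p6, the mouse assembly before the one named for the counts. Capitals mark matches to the GAS letters TTCNNNGAA or to the ISRE letters, GAAA followed by NN and a second GAAA (N is any base), both sought on both strands.
Gbp5 promoter, chr3:142496684-142496933, plus strand: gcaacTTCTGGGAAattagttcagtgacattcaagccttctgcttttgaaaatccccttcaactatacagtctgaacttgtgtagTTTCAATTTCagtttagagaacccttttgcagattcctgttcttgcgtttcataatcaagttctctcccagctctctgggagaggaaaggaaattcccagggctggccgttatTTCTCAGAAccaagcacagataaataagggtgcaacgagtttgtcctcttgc
Gbp7 promoter, chr3:142530086-142530335, plus strand: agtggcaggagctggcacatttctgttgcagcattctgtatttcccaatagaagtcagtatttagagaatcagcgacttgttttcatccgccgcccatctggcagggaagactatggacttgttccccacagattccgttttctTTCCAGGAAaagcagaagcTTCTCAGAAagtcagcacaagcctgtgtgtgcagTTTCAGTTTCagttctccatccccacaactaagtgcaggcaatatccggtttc
Igtp promoter, chr11:58199306-58199555, plus strand: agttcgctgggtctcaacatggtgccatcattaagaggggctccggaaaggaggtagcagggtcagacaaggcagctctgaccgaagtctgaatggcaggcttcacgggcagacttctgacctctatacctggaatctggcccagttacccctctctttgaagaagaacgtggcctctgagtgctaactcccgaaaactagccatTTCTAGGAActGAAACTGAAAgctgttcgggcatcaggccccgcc
Irgm2 promoter, chr11:58214727-58214976, plus strand: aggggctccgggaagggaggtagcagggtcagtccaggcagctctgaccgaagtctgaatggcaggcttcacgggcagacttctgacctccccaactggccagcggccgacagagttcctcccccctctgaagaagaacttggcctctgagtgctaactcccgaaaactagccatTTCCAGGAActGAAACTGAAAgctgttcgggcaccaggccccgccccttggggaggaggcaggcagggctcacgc

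An entry was at hand for 7 of the 10 genes, with 8 windows in all since Gbp3 has 2 starts, and Gbp4, Gbp6 and Iigp1 were without one. A match to the ISRE letters was present for 7 of 7 genes, though the second window of Gbp3 held no match to either motif. Of 32851 promoter windows of the same length, 2.98% held an ISRE match. A match to the GAS letters was present in 4, Gbp5, Gbp7, Igtp and Irgm2, against 7.02% of all windows. Only these 4 of the 7 held both motifs, as did 0.332% of all windows. The windows of Igtp and Irgm2 were 68.1% identical in a global alignment, against 41.2 to 51.1% for the other 20 pairs of genes, and Gbp5 and Gbp7 were 49.1% identical. In Igtp the GAS match lay 45 to 37 bases and the ISRE match 34 to 25 bases before the start, and in Irgm2 both stood in the same order, 75 to 67 and 64 to 55 bases before it. In Gbp5 the ISRE match was 165 to 156 bases away, with GAS matches at 245 to 237 and 52 to 44 bases. In Gbp7 it was nearer, 53 to 44 bases away, with GAS matches at 106 to 98 and 87 to 79 bases. Overlapping matches occurred for the ISRE letters in Gbp3 and Irgm1. A match of letters is a description of the window and does not show that a factor binds there.

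The libraries held 19664981 to 24410715 counts each, and the 10 genes were read by 597 to 10494 counts per library. All 10 markers listed for CD4 T cells exceeded 10 CPM (a gene's counts scaled to a common library total after normalization) at 0 μM, with summed levels of 4140 to 4270 CPM over the 9 libraries. Among the markers of macrophages and monocytes, cells that express GBPs and IRGs strongly, 10 of 12 were under 1 CPM in every group, none was at 0 in all libraries, and the sum was 1.36 to 3.73 CPM at 0 μM, 2.85 to 5.65 at 5 μM and 3.42 to 14.7 at 10 μM. The highest sum was in 10 μM replicate 1, where lung transcripts summed to 72.5 CPM and erythroid transcripts to 23.5 CPM, where no other library exceeded 6.85 and 2.11 CPM. Liver transcripts stood out in 5 μM replicate 2, at 28.4 CPM against at most 2.93. Summed markers of B cells were 144 to 152, 158 to 163 and 162 to 164 CPM at 0, 5 and 10 μM, nearly all of it Ighm, and 8 of those 10 markers were under 1 CPM in every group. Calls of the 10 genes without both libraries with lung or liver transcripts are given where they differ. Counts over the other lists also moved in that setting, and some of these are given below. The part of these other transcripts in the results was not tested.

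Most of the GBP and IRG transcripts were lower with acacetin, and Gbp5 was higher. At 5 μM, 1 of the 10 genes was called higher than at 0 μM (Gbp5) and 6 were called lower (Gbp2, Gbp3, Gbp7, Igtp, Irgm1 and Iigp1), where a call is an adjusted p under 0.05 in edgeR's quasi-likelihood test. Of all genes, 33.1% were called in this comparison, 16.3% higher and 16.8% lower. At 10 μM against 0 μM, 1 was higher and 8 were lower, and Irgm2 was not called, beside 47.3% of all genes, 23.8% higher and 23.6% lower. Between 5 and 10 μM, 7 were lower, where 9% of all genes were called, 4.92% higher and 4.09% lower. No member was higher between 5 and 10 μM, which was also so at an unadjusted p under 0.05 (0 genes) and in DESeq2 (0 genes).

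The changes were modest in size. The median log2 fold change over the 10 genes was -0.12 at 5 μM, -0.33 at 10 μM and -0.18 from 5 to 10 μM, whereas the median over all genes was at most 0.001. The median absolute log2 change was 0.15, 0.33 and 0.18 in those comparisons, beside 0.13, 0.18 and 0.08 over all genes. Beyond a fold change of 1.5, the threshold of the study, 2 of the 10 were lower at 10 μM (Gbp7 and Iigp1), where 3.36% of all genes passed it in that direction. At 5 μM and between both concentrations none of the 10 passed it, while 1.76% and 0.181% of all genes did so downward. The libraries of the groups did not overlap for 8 of the 10 genes at 5 μM, 9 at 10 μM and 8 between both concentrations, beside 46.4%, 54.2% and 25.9% of all genes. In bulk RNA, fewer cells that express a gene and less of its RNA per cell cannot be told apart.

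**Figure D1:**
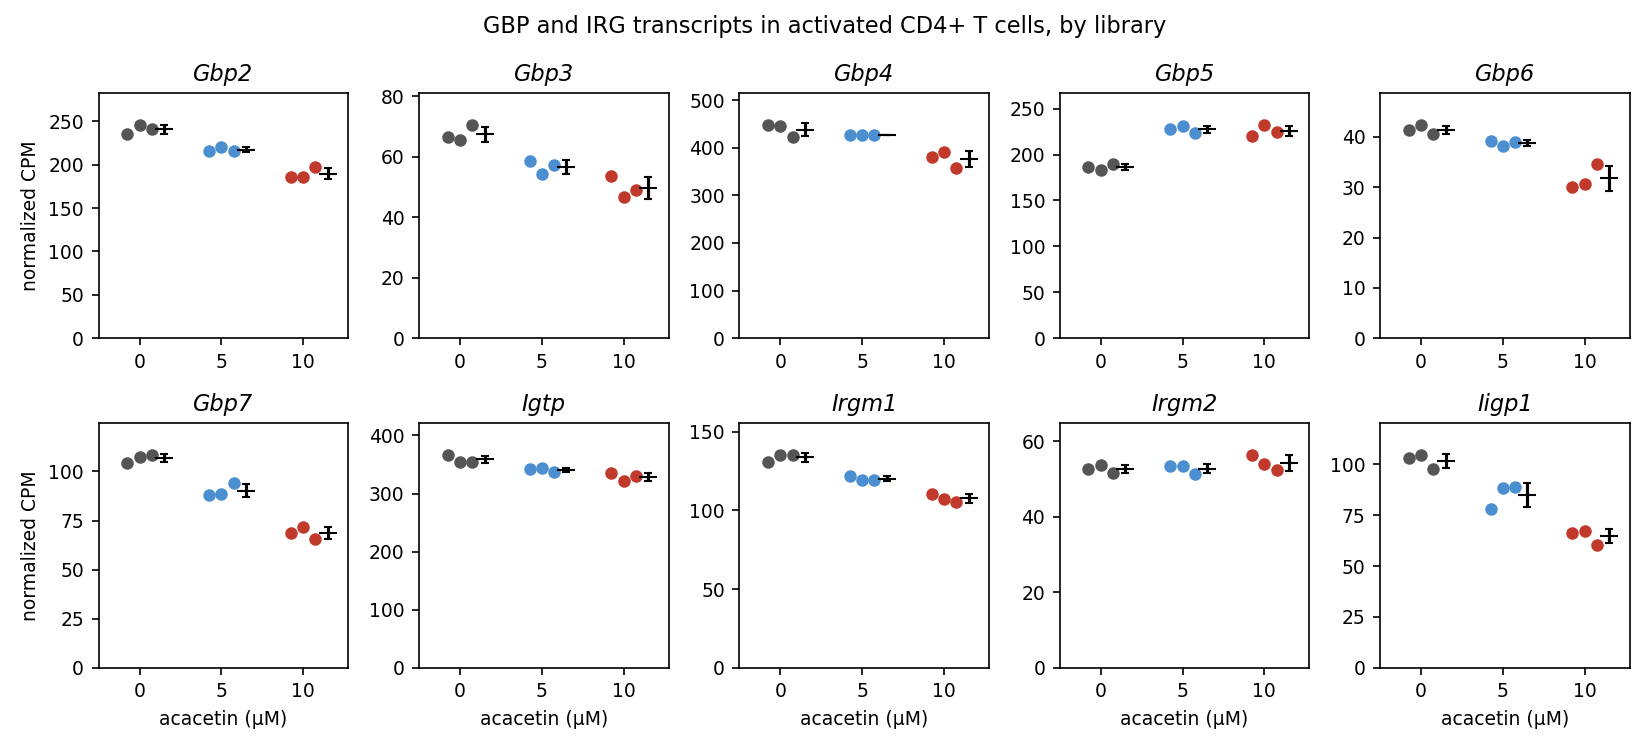
Normalized CPM of each GBP and IRG gene (vertical axes, from 0) against the acacetin concentration in μM, with 1 point per library and the mean ± SD (n = 3) beside each group. Gbp5 lay at 183 to 190 CPM without acacetin and at 221 to 232 CPM with it, Irgm2 overlapped between all groups, and the other genes were lower at 10 μM than at 0 μM without overlap.

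Levels were compared between genes after division by the length of all annotated exons merged. This length can exceed that of the transcripts present in these cells, so the order is approximate, and Gbp6 shares much of its sequence (below). At 0 μM the highest level per kilobase was that of Igtp, 177 ± 3.3 CPM per kb (SD, n = 3), followed by Gbp2 at 95.6 ± 2.0 and Gbp4 at 58.4 ± 1.8 CPM per kb. Gbp5 followed at 28.1, then Irgm1 at 23.0, Gbp3 at 20.7, Gbp7 at 19.0, Iigp1 at 17.5, Irgm2 at 14.3 and Gbp6 at 6.95 CPM per kb. No neighbours in this order overlapped in their libraries. The lengths came from the preceding assembly, so an error in a gene's exons would shift its place.

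Gbp5, which in mouse macrophages promotes assembly of the NLRP3 inflammasome and carries a lipid anchor, was the only member that rose. It was measured at 186, 183 and 190 CPM at 0 μM, at 228, 231 and 223 CPM at 5 μM and at 221, 232 and 225 CPM at 10 μM. Every library with acacetin stood above every library without it, and the groups at 5 and 10 μM overlapped. Gbp5 rose by 0.29 ± 0.03 on the log2 scale at 5 μM (SE, adjusted p = 8.1e-07) and by 0.27 ± 0.03 at 10 μM (adjusted p = 5e-07), or by 21.9% and 21.0%. From 5 to 10 μM the difference was -0.01, with a 95% interval of -0.07 to 0.05 (adjusted p = 0.87). The gain of Gbp5 was thus reached at the lower concentration, whereas most other members continued to fall.

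Gbp7, which in mouse macrophages helps to assemble the phagocyte oxidase on phagosomes, had the deepest fall at 10 μM of the 6 GBP members. Its levels were 105, 108 and 108 CPM at 0 μM, 88.1, 88.6 and 94.1 CPM at 5 μM and 68.6, 71.9 and 65.8 CPM at 10 μM. No group overlapped another. Gbp7 fell by 0.24 on the log2 scale at 5 μM (SE 0.04, adjusted p = 9.2e-05) and by 0.64 at 10 μM (SE 0.04, adjusted p = 3.3e-10). Between 5 and 10 μM it fell by 0.39 (adjusted p = 5.2e-06). At 10 μM it was at 0.643 of its level at 0 μM.

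Gbp2, which coats the vacuole of Toxoplasma gondii in mouse cells and is needed to control this parasite, fell by smaller steps. It stood at 235, 245 and 241 CPM at 0 μM, 216, 220 and 215 CPM at 5 μM and 186, 186 and 197 CPM at 10 μM. The 3 groups lay apart in order of concentration. Gbp2 fell by 9.77% at 5 μM (log2 -0.15, SE 0.03, adjusted p = 0.0011) and by 21.2% at 10 μM (log2 -0.34, SE 0.03, adjusted p = 4.5e-08). The fall from 5 to 10 μM, -0.19 on the log2 scale, was also called (adjusted p = 0.00055).

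Gbp3, a neighbour of Gbp7, changed in the same direction as Gbp2. Its range was 65.5 to 70.4 CPM at 0 μM, 54.1 to 58.5 CPM at 5 μM and 46.6 to 53.8 CPM at 10 μM. It fell by 0.25 on the log2 scale at 5 μM (SE 0.05, adjusted p = 0.00085) and by 0.44 at 10 μM (SE 0.05, adjusted p = 1.4e-06). The fall of 0.19 from 5 to 10 μM was close to the threshold (adjusted p = 0.034) and lost its call in 6 of 20 alternative settings, where the adjusted p reached 0.12. Among these settings were those without 5 μM replicate 1 or 3 and without 10 μM replicate 2 or 3.

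Gbp4 and Gbp6, which lie in another cluster, were called lower at 10 μM only, although the difference between their changes at both concentrations rests on the comparison of 10 with 5 μM. Gbp4, described in the mouse as a brake on the interferon regulator IRF7, had the highest CPM of all members, with 423 to 447 CPM at 0 μM, 426 to 427 at 5 μM and 357 to 390 at 10 μM. At 5 μM its groups overlapped with those at 0 μM, and the log2 difference of -0.04 had a 95% interval of -0.11 to 0.03 (adjusted p = 0.41). It fell by 0.22 at 10 μM against 0 μM (SE 0.03, adjusted p = 2.1e-05) and by 0.18 from 5 to 10 μM (adjusted p = 0.0016). Gbp6 was read at 40.5 to 42.3, 38.2 to 39.3 and 30.0 to 34.7 CPM. The log2 difference of Gbp6 at 5 μM was -0.09 (95% interval -0.21 to 0.02, adjusted p = 0.21) even though the libraries did not overlap. It fell by 0.38 at 10 μM (SE 0.06, adjusted p = 1.6e-05) and by 0.29 from 5 to 10 μM (adjusted p = 0.0027).

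The value of Gbp6 is the least certain of the 10, because 64.5% of its exon windows of 100 bases recur in another annotated gene. These were mainly in Gm43302 (59.0% of windows), which is not among the counted symbols, and in Gbp10 (36.3%), which is. For Gbp7 10.0% of windows recurred, nearly all in Gm43802, also not among the counted symbols. For Igtp 5.16% recurred in Irgm2, and for each of the others at most 3.01%. How the authors assigned reads that fit several genes is not given, and none of Gbp2, Irgm1 and Iigp1 had such a window.

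Iigp1, an effector IRG that loads onto the vacuoles of Toxoplasma, had the deepest estimated fall of the 10 at 10 μM. It was not told apart from that of Gbp7 (95% intervals -0.76 to -0.55 and -0.72 to -0.55). Its libraries stood at 103, 105 and 97.8 CPM at 0 μM, at 78.2, 88.3 and 88.6 CPM at 5 μM and at 66.4, 67.2 and 60.6 CPM at 10 μM. All 3 groups lay apart, with 5 μM replicate 1 the lowest of its group. It fell by 0.26 on the log2 scale at 5 μM (SE 0.05, adjusted p = 5e-04), by 0.65 at 10 μM (SE 0.05, adjusted p = 5.3e-09) and by 0.40 between both concentrations (adjusted p = 6.8e-05). At 10 μM it was at 0.636 of its level without acacetin.

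The regulatory IRGs changed less than Iigp1, and not alike. Irgm1, which is needed for mouse T cells to survive exposure to interferon-γ, was at 130, 135 and 135 CPM at 0 μM, 122, 119 and 119 CPM at 5 μM and 111, 107 and 105 CPM at 10 μM. Its groups did not overlap, and it fell by 0.16 at 5 μM (SE 0.03, adjusted p = 0.001), by 0.31 at 10 μM (SE 0.03, adjusted p = 2.5e-07) and by 0.16 from 5 to 10 μM (adjusted p = 0.0046) on the log2 scale.

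Igtp, found on the endoplasmic reticulum, was at 366, 355 and 355 CPM at 0 μM, 342, 344 and 336 CPM at 5 μM and 335, 321 and 330 CPM at 10 μM. The groups stood apart by narrow gaps. Igtp fell by 0.13 at 10 μM (SE 0.03, adjusted p = 0.0011). Its fall of 0.07 at 5 μM (SE 0.03, adjusted p = 0.048) lost the call in 11 of 20 alternative settings, with an adjusted p of 0.014 to 0.19 over them. It was lost without any one of the libraries at 0 or 5 μM, without 10 μM replicate 3 and without both libraries with lung or liver transcripts (0.054), so that 5 members remained lower there. From 5 to 10 μM the difference was -0.05 (95% interval -0.11 to 0.01, adjusted p = 0.29).

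Irgm2, which lies next to Igtp, showed no detected change. It was measured at 52.6, 53.8 and 51.7 CPM at 0 μM, 53.5, 53.5 and 51.3 CPM at 5 μM and 56.4, 54.0 and 52.3 CPM at 10 μM. The groups overlapped in each comparison. Its log2 difference was 0.00 at 5 μM (95% interval -0.09 to 0.10, adjusted p = 0.96) and 0.04 at 10 μM (95% interval -0.05 to 0.13, adjusted p = 0.47), so a fall of the size seen for Irgm1 lay outside the interval. Whether Irgm2 and Igtp differed in their response was not tested.

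**Figure D2:**
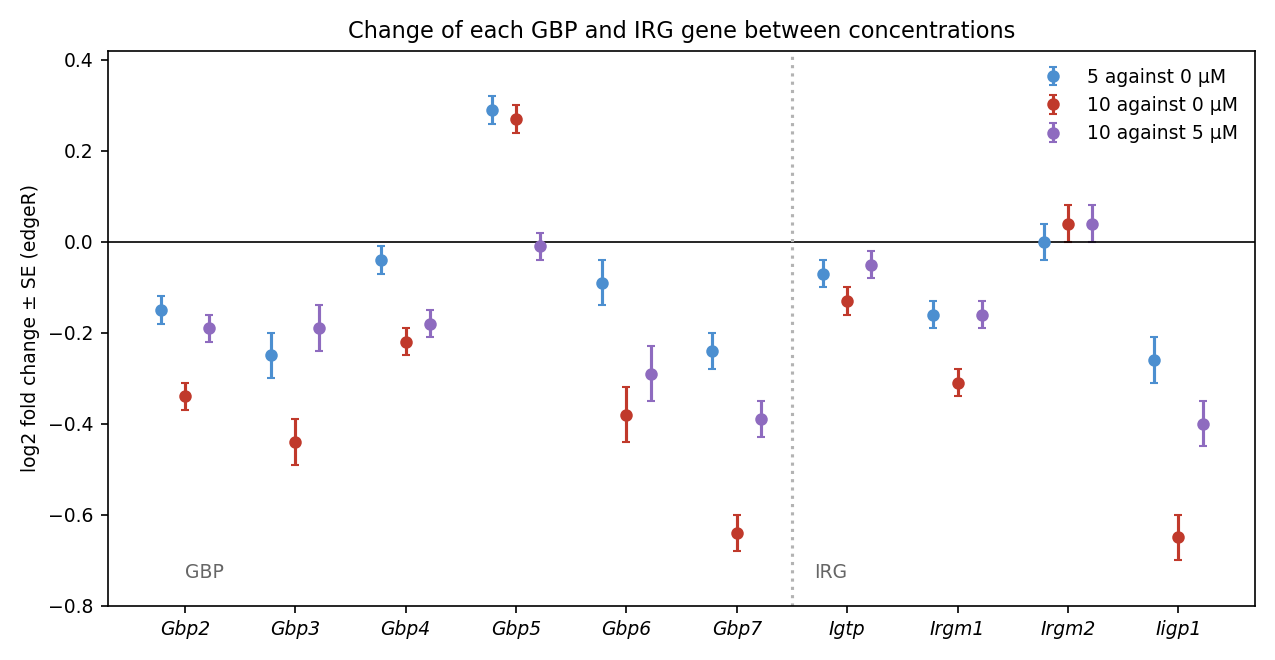
Log2 fold change ± SE from edgeR (vertical axis) for each GBP and IRG gene (horizontal axis) in the comparisons of 5 with 0, 10 with 0 and 10 with 5 μM acacetin, 3 libraries per group. Gbp5 stood at 0.29 and 0.27 above 0, Irgm2 close to 0, and Gbp7 and Iigp1 reached -0.64 and -0.65 at 10 μM.

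Neighbouring genes did not move as a block. In the order of the reference annotation, Gbp5, Gbp7, Gbp3, Gbp2b and Gbp2 follow each other on chromosome 3 with no other protein-coding gene between them. Gbp5, at the edge of this cluster, rose, and the other 4 fell at both concentrations, Gbp2b from 313 ± 2.82 to 212 ± 5.82 CPM at 10 μM (n = 3, log2 -0.56, adjusted p = 1.3e-11). On chromosome 5 the order is Gbp8, Gbp9, Gbp4, Gbp10 and Gbp6. There Gbp8 rose by 0.22 at 5 μM (adjusted p = 0.00077) and by 0.20 at 10 μM (adjusted p = 0.00084), while Gbp10 fell by 0.30 (adjusted p = 0.011) and 0.66 (adjusted p = 5.5e-06). Gbp10 shares sequence with Gbp6 (above), so reads may have been divided between these genes. Gbp9 rose by 0.19 at 5 μM (adjusted p = 0.0066) and was at 0.03 at 10 μM (adjusted p = 0.67). At 5 μM the call of Gbp9 was lost without 0 μM replicate 3 (adjusted p = 0.053) and that of Gbp10 without 0 μM replicate 1 (adjusted p = 0.085). The comparisons with 0 μM share the same 3 control libraries.

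**Figure D3:**
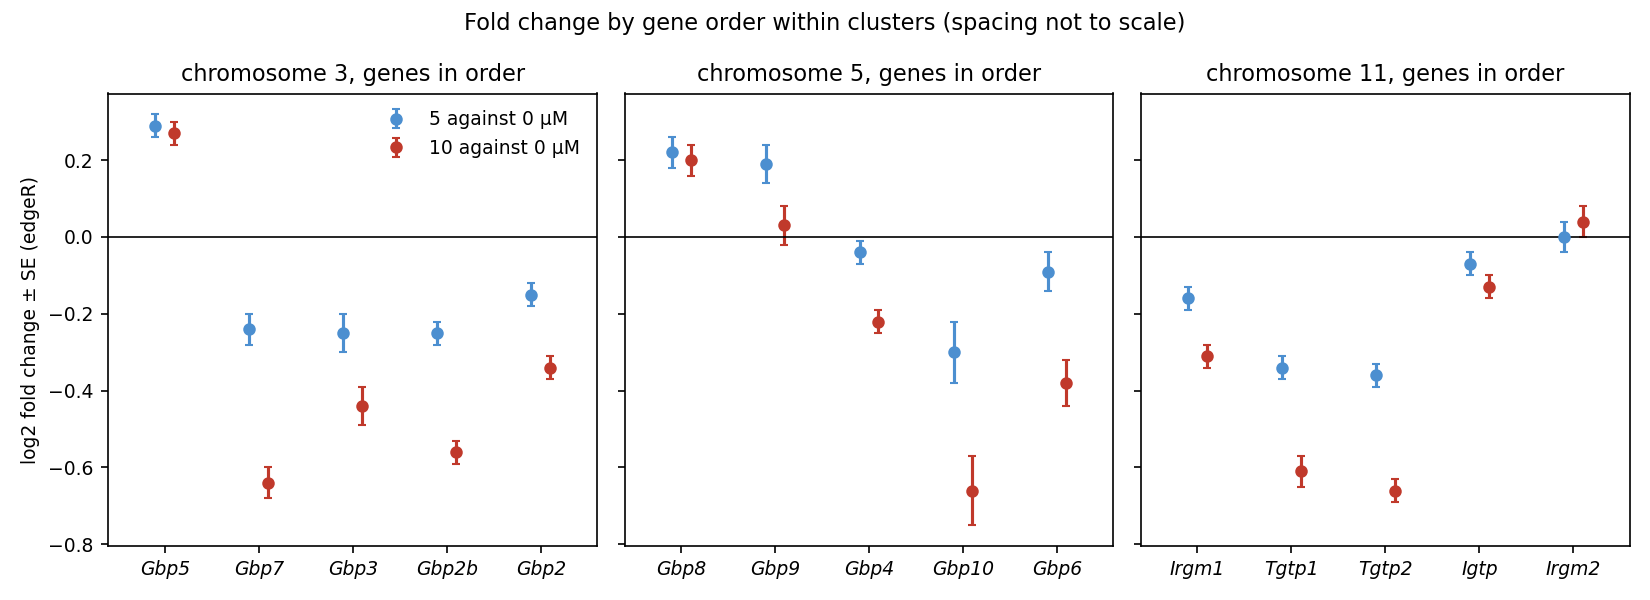
Log2 fold change ± SE from edgeR (vertical axis) at 5 and 10 μM against 0 μM, with genes in their order along chromosomes 3, 5 and 11 (horizontal axes, spacing not to scale, other genes left out). Gbp5 lay above 0 next to Gbp7, which fell, and on chromosome 11 Tgtp1 and Tgtp2 lay at -0.61 and -0.66 at 10 μM, with Irgm2 at 0.04.

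The contrast between Gbp5 and its direct neighbour Gbp7 can be read within a library, where it does not depend on the scaling between libraries. The ratio of Gbp5 to Gbp7 in CPM was 1.78, 1.70 and 1.75 at 0 μM, 2.59, 2.6 and 2.37 at 5 μM and 3.21, 3.22 and 3.41 at 10 μM. The ratio was higher in every library at 5 μM than at 0 μM, and higher again in every library at 10 μM. The log2 ratio differed by 0.53, 0.91 and 0.38 between 5 and 0, 10 and 0 and 10 and 5 μM, each with p = 0.1 in a two-sided exact permutation test, the smallest that 3 against 3 libraries allow. Against 0 μM, Gbp5 was higher and Gbp7 lower without overlap, so this p was fixed in advance and adds no support to the contrast. Of the summed CPM of the 6 GBPs, Gbp5 made up 17.26 ± 0.443% without acacetin, 21.51 ± 0.319% with 5 μM and 23.96 ± 0.419% with 10 μM (SD, n = 3). The sum over all 10 genes was 1727 ± 12.5, 1655 ± 7.12 and 1497 ± 18.4 CPM (SD, n = 3). The pair was chosen for this comparison because the genes adjoin and moved apart.

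**Figure D4:**
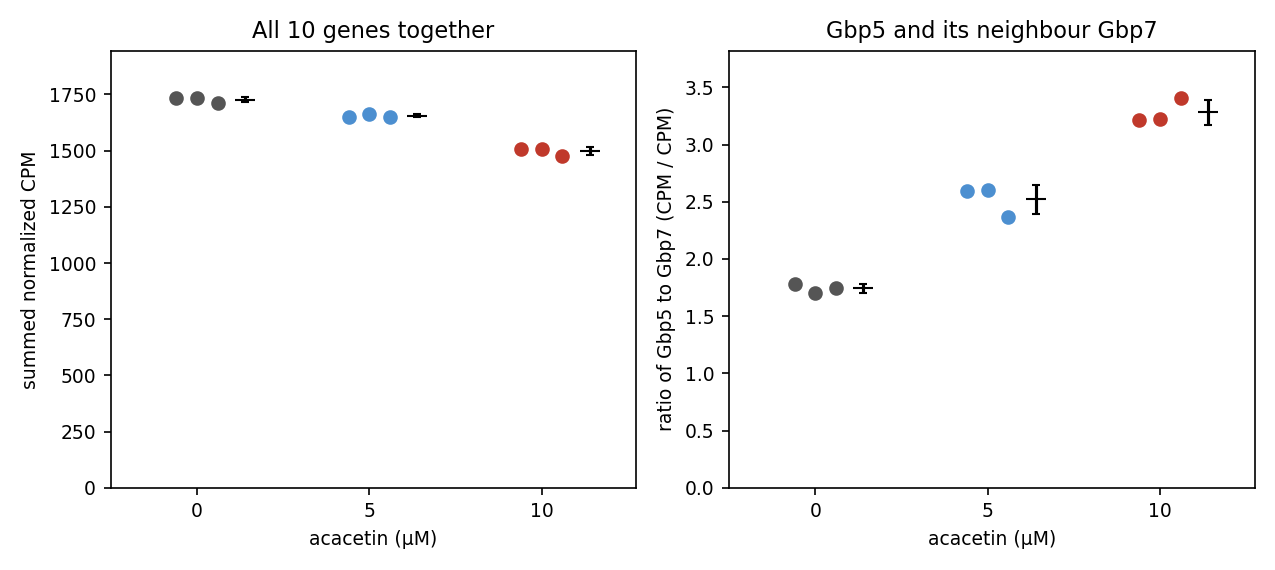
Summed normalized CPM of the 10 GBP and IRG genes (left) and the ratio of Gbp5 to Gbp7 (right), both from 0, against the acacetin concentration in μM, with 1 point per library and the mean ± SD (n = 3) beside each group. The sum fell from 1727 to 1497 CPM on average and the ratio rose from 1.75 to 3.28, with no overlap between groups.

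Across the 9 libraries the members formed a common pattern, from which Gbp5 and Irgm2 stood apart. The log2 CPM of Gbp5 correlated negatively with 8 of the other 9 members, with a median r of -0.75 and a lowest of -0.85, and its r with Irgm2 was 0.21. Among the 36 pairs without Gbp5 the median r was 0.87 and the lowest, Gbp6 with Irgm2, was -0.62. Gbp7 and Iigp1, in different families, reached 0.98. These correlations are a description, since the points fall into 3 groups that differ in acacetin. Of 9508 other genes with a mean of at least 5 CPM, those most like Gbp4 over the 9 libraries were Ticrr (r = 0.978), Fem1c (0.977) and Utp15 (0.968), and those most like Igtp were Dctn3 (0.988), Fxyd5 (0.987) and Psmb5 (0.976).

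The other interferon-inducible GTPases that were listed beside the members also fell more often than they rose. Of 16 listed genes 12 were tested, and 4 were higher and 5 lower at 5 μM, 3 higher and 7 lower at 10 μM, and 1 higher and 6 lower from 5 to 10 μM. Their median log2 fold change was -0.18, -0.50 and -0.26 in these comparisons. Over all genes 33.1%, 47.3% and 9% were called, either way. Without both libraries with lung or liver transcripts, 3 of the listed genes were higher and 5 lower at 10 μM. In that setting 0 were higher and 4 lower from 5 to 10 μM. Tgtp1 and Tgtp2, effector IRGs like Iigp1, fell from 191 ± 3.37 to 125 ± 2.01 CPM and from 138 ± 1.01 to 87.5 ± 1.68 CPM at 10 μM (n = 3), or by 0.61 and 0.66 on the log2 scale (adjusted p = 9.7e-11 and 1.4e-11). They are near-identical copies, so reads may have been divided between them. The 3 effector IRGs of these lists fell by 0.61, 0.65 and 0.66, while the regulators Igtp, Irgm1 and Irgm2 were at -0.13, -0.31 and 0.04. Ifi47, an effector IRG on none of the lists and named after its values were seen, went the other way, and rose by 0.18 at 5 μM (adjusted p = 0.00016) and by 0.10 at 10 μM (SE 0.03, adjusted p = 0.01).

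Gvin2, of the very large inducible GTPases, had the deepest fall of this list, from 117 ± 2.76 to 64.4 ± 1.95 CPM (log2 -0.86, adjusted p = 1.2e-12). Gvin1 was lower at 10 μM by a smaller amount (log2 -0.22, adjusted p = 0.012), a call that 4 of 20 settings lost (without 0 μM replicate 1, 10 μM replicate 1 or 3, or both libraries with lung or liver transcripts, with an adjusted p of at most 0.07), and Gbp11 was called at 10 μM (log2 -0.44, adjusted p = 0.041) but lost its call in 11 of 20. Genes that rose at 10 μM were Gbp8, Mx2 (log2 0.27, adjusted p = 0.00083), a dynamin-like antiviral GTPase, and Irgq (log2 0.60, adjusted p = 2.4e-07), an IRG-like gene at 21.6 ± 0.894 CPM without and 32.8 ± 0.336 CPM with 10 μM acacetin. Irgq was also the gene of the list called higher from 5 to 10 μM (log2 0.20, adjusted p = 0.042), which 13 of 20 settings lost. Mx1 was near 1 CPM and not called (log2 -0.59, adjusted p = 0.16), and Gvin3 was under 1 CPM and not tested.

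Genes of interferon signalling did not share a direction. Of 19 tested, 6 were higher and 3 lower at 5 μM, 8 higher and 3 lower at 10 μM, and 2 higher and 1 lower between both, with a median log2 change of 0.07, 0.11 and 0.01. Between both, the counts were 1 higher without 5 μM replicate 2 or 3, 2 lower without 5 μM replicate 1 and 3 lower without 10 μM replicate 2. Without both libraries with lung or liver transcripts, 1 was higher and 1 lower between both. Of all genes 33.1%, 47.3% and 9% were called in these 3 comparisons, either way. Ifng, which encodes interferon-γ itself, was low, at 3.04 ± 0.248, 2.44 ± 0.673 and 2.69 ± 0.514 CPM at 0, 5 and 10 μM (n = 3), and its log2 differences of -0.32 and -0.18 had adjusted p of 0.27 and 0.51. The receptor chain Ifngr2 rose from 30.2 ± 2.42 to 50.5 ± 2.17 CPM at 10 μM (log2 0.75, adjusted p = 7.7e-09), and Ifnar1, a chain of the type I interferon receptor, rose by 0.33 (adjusted p = 5.1e-07). Ifngr1, the other chain of the interferon-γ receptor, was not called (log2 0.12, adjusted p = 0.071). Of the receptor kinases, Jak2 rose by 0.14 (adjusted p = 0.00058) and Jak1 was not called (log2 0.03, adjusted p = 0.43).

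The interferon regulatory factors diverged as well. Irf1, which acts at GBP and IRG promoters, rose from 329 ± 3.99 CPM at 0 μM to 363 ± 1.41 at 5 μM and 371 ± 1.62 at 10 μM, or by 0.14 and 0.17 on the log2 scale (adjusted p = 0.0004 and 2.1e-05). Irf8, a further factor of this family, fell from 252 ± 5.38 to 186 ± 0.492 and 165 ± 1.16 CPM, or by 0.44 and 0.61 (adjusted p = 1.5e-09 and 4.2e-12). Ptpn11, which encodes the phosphatase SHP2, fell by 0.33 at 10 μM (adjusted p = 1.3e-07). Irf8 thus moved in the direction of most members and Irf1 in that of Gbp5, and whether either had a part in their changes was not tested.

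**Figure D5:**
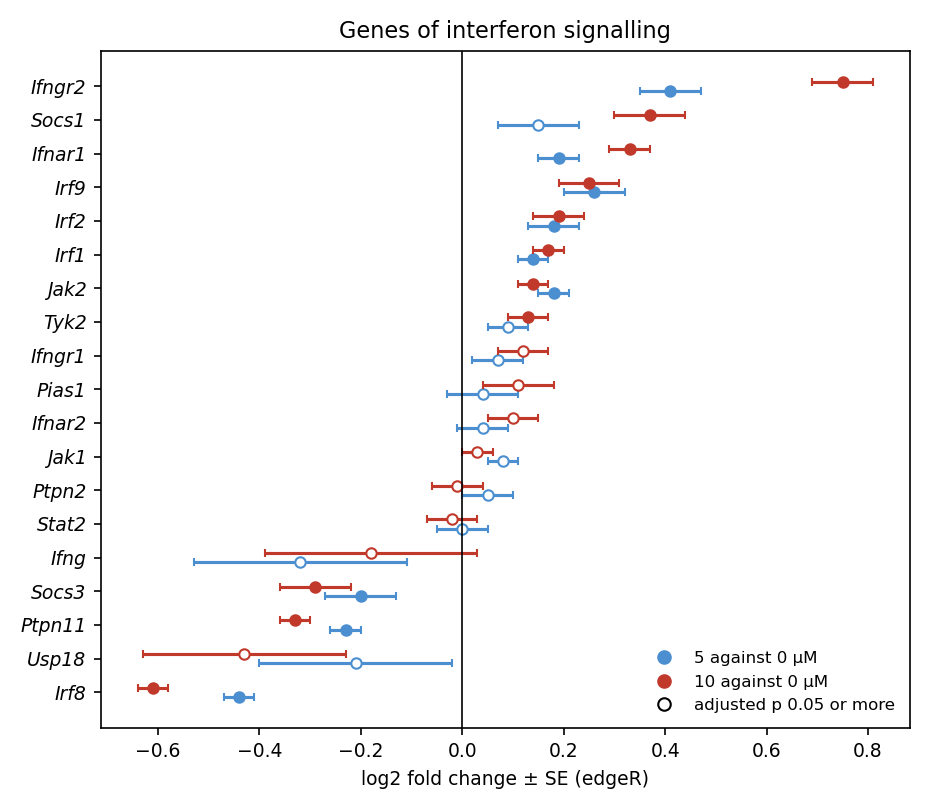
Log2 fold change ± SE from edgeR (horizontal axis) of the 19 tested genes of interferon signalling (vertical axis) at 5 and 10 μM against 0 μM acacetin, with open points for an adjusted p of 0.05 or more. At 10 μM Ifngr2 stood at 0.75 and Irf8 at -0.61, with Irf1 at 0.17.

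Other interferon targets were called in both directions. Of 31 tested, 10 were higher and 9 lower at 5 μM, 11 higher and 14 lower at 10 μM, and 1 higher and 3 lower from 5 to 10 μM, with a median log2 change of 0.02, -0.02 and -0.07. Among all genes 33.1%, 47.3% and 9% were called, either way. The 10 targets higher at 5 μM became 6 without 0 μM replicate 1 or 5 μM replicate 1. From 5 to 10 μM the counts were 3 higher and 5 lower without 10 μM replicate 2, and 0 higher and 2 lower without 10 μM replicate 3. Without both libraries with lung or liver transcripts, 8 targets were higher and 9 lower at 5 μM. In that setting 11 were higher and 13 lower at 10 μM, and 0 higher and 2 lower between both. The 4 with the smallest adjusted p at 10 μM all fell: Ifih1, which encodes the RNA sensor MDA5, by 0.89 (adjusted p = 1.1e-10), the aminopeptidase Lap3 by 0.60 (1.1e-09), the immunoproteasome subunit Psmb10 by 0.56 (1.5e-08) and the antiviral synthetase Oas3 by 0.91 (3.6e-07). Beyond 1.5-fold at 10 μM, 6 were lower and 3 higher. Over all genes 3.36% were lower beyond this threshold, and the upward share is not given here. The 3 that rose were Isg15 from 3.93 ± 0.698 to 8.97 ± 1.20 CPM (log2 1.20, adjusted p = 9e-07), Ifit1 (log2 0.83, adjusted p = 0.0011) and Oas2 (log2 1.83, adjusted p = 0.00071). The choice of these 3 was made with their values in view, and all were under 5 CPM at 0 μM. Oas2 was the lowest, at 0.263 ± 0.1 CPM at 0 μM and 0.963 ± 0.0982 CPM at 10 μM, so its fold change rests on few counts.

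GBPs and IRGs reach vacuoles with the help of the machinery that conjugates LC3 and its relatives to membranes. The list for it also held genes that act outside the conjugation itself, such as Sqstm1, Ulk1 and Traf6. Of its 17 genes, all tested, 6 were higher and 1 lower at 5 μM, and 6 higher and 4 lower at 10 μM. The median log2 change was 0.02 and 0.04. The 4 lower became 2 without 0 μM replicate 1 or 0 μM replicate 3. The 6 higher at 5 μM became 5 without both libraries with lung or liver transcripts. Over all genes 33.1% were called at 5 μM and 47.3% at 10 μM, either way. Sqstm1, which encodes the adaptor p62, rose from 188 ± 3.90 to 220 ± 5.20 and 250 ± 4.98 CPM, by 0.23 and 0.42 on the log2 scale (adjusted p = 1.4e-05 and 2.4e-09). At 10 μM the kinase gene Ulk1 rose by 0.60 (adjusted p = 1.2e-08), the ubiquitin ligase gene Traf6 by 0.41 (adjusted p = 3.4e-08) and Gabarap, of the LC3 relatives, by 0.36 (adjusted p = 1.1e-06). Of the Atg genes listed, Atg7 fell by 0.17 (adjusted p = 0.016) and Atg12 rose by 0.21 (adjusted p = 0.014) at 10 μM. These calls were lost in 4 and 2 of 20 settings. Atg3, Atg5, Atg10 and Atg16l1 were not called. Over the 17 genes, from 5 to 10 μM 3 were called higher and none lower (0 at an unadjusted p under 0.05, and 0 in DESeq2). Over all genes 4.92% were higher and 4.09% lower in this comparison, so the lack of lower calls is near that share.

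Several GBPs are anchored to membranes by a lipid attached by prenyltransferases. Of 10 genes of this process, 1 was higher and 3 lower at 5 μM, and 2 were higher and 3 lower at 10 μM, with a median log2 change of -0.03 and -0.01. This is near the share over all genes, of which 33.1% and 47.3% were called, either way. The median absolute log2 change was 0.05 and 0.09, below the 0.13 and 0.18 of all genes. Fdps, which makes the lipid precursor farnesyl diphosphate, fell by 0.46 at 10 μM (adjusted p = 5e-07) and Rabggta, of the transferase that acts on Rab proteins, rose by 0.23 (adjusted p = 0.0013). Fnta, a subunit shared by both other transferases, fell by 0.15 (adjusted p = 0.022) and the protease gene Zmpste24 by 0.10 (adjusted p = 0.023), calls that 4 and 7 of 20 settings lost, with an adjusted p of up to 0.15 and 0.11. The count of 3 lower became 1 at 5 μM without 0 μM replicate 1, and 1 at 10 μM without 0 μM replicate 3 or 10 μM replicate 3, and the 2 higher at 10 μM became 1 without 0 μM replicate 1 or 2 or 10 μM replicate 1. From 5 to 10 μM 0 of these genes were called in edgeR (1 at an unadjusted p under 0.05) and 0 in DESeq2. Of all genes 9% were called there in edgeR, either way.

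Downstream of vacuole rupture, GBPs promote inflammasome activation and lysis of the host cell. Of 11 listed genes 6 were tested, and the others, all under 1 CPM, did not pass the filter on low counts. At 5 μM 3 were lower and at 10 μM 4 were lower, with a median log2 change of -0.25 and -0.32. Over all genes 16.8% and 23.6% were lower. At 10 μM, Casp4, which encodes the sensor of cytosolic lipopolysaccharide, fell from 14.5 ± 1.36 to 9.04 ± 0.911 CPM (log2 -0.69, adjusted p = 7.7e-06), the adaptor gene Pycard fell by 0.36 (adjusted p = 0.00014), Casp1 by 0.84 (adjusted p = 0.00055) and the pore-forming Gsdmd by 0.28 (adjusted p = 0.0083, but 0.075 without 0 μM replicate 3). No gene of this list was called higher in any comparison (0 at an unadjusted p under 0.05, and 0 in DESeq2). Over all genes 16.3% were higher at 5 μM, 23.8% at 10 μM and 4.92% between both. The 6 tested genes are too few to tell this lack of higher calls from those shares. Casp1 was read at 7.58 ± 1.99 CPM at 0 μM, the widest relative spread of these 4 genes.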

How the data were processed

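RNA-seq libraries of 9 CD4+ T cell cultures were analysed, 3 per acacetin concentration, as grouped by the titles of the samples. The authors deposited 1 table of estimated counts per gene (expected counts). The labels and methods give a TruSeq library kit, Illumina sequencing, GRCm39 as the build, HISAT2 and StringTie in the paragraph on reads, and DESeq2 for pairs of groups. Which tool, annotation and strand setting gave the counts is not given in the sources used here. Of the values, 24.1% were not whole, so all were rounded. All 9 columns were matched to samples by title and 0 were left unused. Where a symbol stood on several entries, the one with the most counts carried it.

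Genes were filtered with filterByExpr, scaled by TMM and compared by the quasi-likelihood method of edgeR 4.0.16 (limma 3.58.1, R 4.3.3), with all 9 libraries in 1 fit, and p-values were adjusted by Benjamini-Hochberg over the 12185 genes tested. CPM are edgeR's counts scaled to a common library total. The common coefficient of variation between replicates was 3.65%. Between replicates of a group the chi-square per gene was 2 to 5.54, above counting noise, and none was counted as a repeat of another. Simulated data for 10 against 0 μM with 12067 genes were used to test the steps, which called 88% of the genes altered 1.25-fold, 100% of those altered 1.5-fold and 10 of 11867 unaltered genes. The altered genes, 50 per fold change, all had a mean above 5 CPM, so these shares do not apply to genes below it. Far fewer genes were altered than the 47.3% called in the data at 10 against 0 μM. Correlations used log2 CPM with a prior count of 2.

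Promoters came from RefSeq (GRCm38.p6), 250 bases before each start, matched by symbol. Exon lengths, shared windows of 100 bases and gene order came from annotations of the same assembly, and no positions of the counted genes are given, since their build differs. Global alignments were made with Biopython 1.88.

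All 10 members were named. In each other list up to 4 genes with the smallest adjusted p at 10 against 0 μM were named, with Ifng, Ifngr1, Ifngr2, Jak1, Jak2, Irf1 and Irf8, all measured genes of the list of other GTPases, and the 3 genes most correlated with the GBP member and with the IRG member of the highest mean CPM, Gbp4 and Igtp. The members and lists were chosen with earlier results of these data known, and 1 listed gene is not reported here. Alternatives were RLE factors or library totals, no filter or a minimum of 10 counts per library, the replicate number as a block, 2 groups alone, DESeq2 1.42.0, thinned counts, summed entries and leaving out each library. Leaving out both libraries with lung or liver transcripts was added after seeing the data.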

Additional observations from a re-analysis of the deposited data

How the results depend on the processing

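The count of members called higher was 1 at 5 and at 10 μM against 0 μM in all 20 alternatives, and 8 were called lower at 10 μM in all 20. At 5 μM, 5 or 6 were called lower, with Igtp lost under library totals (adjusted p = 0.13), with no filter (0.066) and in the leave-one-out fits named above. Between 5 and 10 μM, 6 or 7 were lower, with Gbp3 lost when the 2 groups were fitted alone in edgeR (0.064) or DESeq2 (0.095). Over the other lists, 17 genes were called between 5 and 10 μM, but 11 to 25 when a library was left out (11 without 5 μM replicate 3 or 10 μM replicate 3, 25 without 10 μM replicate 2) and 10 without both libraries that held lung or liver transcripts; the cause was not tested. The uncalled values of Irgm2 and Gbp5 near 0 changed sign. Irgm2 at 5 against 0 μM was -0.01 without 0 μM replicate 3 or 5 μM replicate 2 or both libraries with lung or liver transcripts, and 0 without 5 μM replicate 1. Gbp5 at 10 against 5 μM was 0 without 10 μM replicate 1 and 0.02 without both libraries. With library totals the share of called genes that were higher moved from 49.2 to 56.3% at 5 μM and from 54.6 to 46.3% between 5 and 10 μM, with a median shift of at most 0.018 log2. Whether same-numbered replicates were paired is not stated in the sources used, and the main fit took them as unpaired. Between groups, deviations correlated at r of -0.03 to 0.09 for the same number and -0.09 to 0.04 for other numbers. Of the 9 libraries, 8 correlated best with their own number, so a shared replicate structure remains possible. With the replicate block, 5 members were lower at 5 μM, with Igtp lost (adjusted p = 0.058), 8 at 10 μM and 7 between both. Genes of low counts had wider errors, with an SE of 0.21 for Ifng against 0.03 for Gbp2 at 10 against 0 μM.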
